A study of Homo sapiens with 4 samples.

Results

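The proteasome is the large protease that breaks down ubiquitin-tagged proteins, and its subunit and regulator genes were examined in HCT116 cells, a line established from a human colon cancer, with TTC22 overexpressed or knocked down. Genes were taken by name, PSMA to PSMG followed by a number, which 55 of the 47251 listed genes matched. After 1 pseudogene, 5 antisense RNAs and PSMC3IP, a meiotic recombination factor, had been set aside, 48 proteasome genes were left. There were 4 libraries from cells whose labels name no other genetic change, 1 library in each group. TTC22V1 cells received 2 µg of a pCMV-entry plasmid that encodes TTC22 variant 1, and vector cells received 2 µg of the control plasmid. siTTC22 cells received 3 pooled siRNAs against TTC22 at 100 nM in all, and scramble cells a scrambled siRNA at 100 nM. RNA was taken after 48 hours in every group. With 1 library a group, replicate error is unknown and nothing could be tested, so every value describes these libraries only.

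The core particle of the proteasome is a barrel in which outer rings of alpha subunits control entry and inner rings of beta subunits hold the catalytic sites. The regulatory particle sits on the barrel. Its base holds ATPases that unfold substrates, and its lid removes ubiquitin. Interferon induces alternative catalytic beta subunits, which form the immunoproteasome and favour peptides for MHC class I, together with the PA28 alpha and beta activator. When proteasome activity is short, the transcription factor NFE2L1 is known to raise the subunit genes together.

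Levels are given as FPKM, that is, fragment numbers set relative to gene length and to the library, a unit inferred from the values. A log2 fold is the log2 of the ratio of FPKM + 1. A gene was called measured in a comparison if the mean of the compared libraries was at least 1 FPKM. It was called higher or lower if its log2 fold was at least 1 in size. This limit is called 2-fold here, and is 2-fold on FPKM + 1 rather than on FPKM. Across all genes the summed FPKM lay between 181102 and 205734 per library. TTC22 stood at 24215 FPKM with TTC22V1 and 4.46 FPKM in vector, and at 6.54 FPKM with siTTC22 and 10.7 FPKM in scramble, so the knockdown did not pass the 2-fold rule (log2 fold −0.63). Over all measured genes the log2 folds had a median of −0.21 for TTC22V1 over vector and −0.02 for siTTC22 over scramble. Of 6 epithelial markers 5 were at 1 FPKM or more in every library and LGALS4 was near 0. Of 5 leukocyte markers CD68 alone reached 1 FPKM. The summed leukocyte list was 6.03 FPKM with TTC22V1, 6.60 FPKM in vector, 37.4 FPKM with siTTC22 and 42.8 FPKM in scramble, with CD3E listed at 0 and PTPRC at or near 0 throughout. Of 4 fibroblast markers COL1A1 alone reached 1 FPKM, and of 3 endothelial markers 0 did. In bulk RNA, fewer cells with a transcript and less of it per cell cannot be told apart.

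Proteasome transcripts were abundant, and the levels of the 48 genes spanned a wide range. The 48 genes together summed to 1480.1 FPKM with TTC22V1, 1814 FPKM in vector, 919 FPKM with siTTC22 and 911 FPKM in scramble. Both siRNA libraries were thus lower than both plasmid libraries. As a share of the summed FPKM without TTC22, the 48 genes made up 0.900% with TTC22V1, 0.940% in vector, 0.447% with siTTC22 and 0.503% in scramble. On the per-length scale the beta ring was the most abundant class, with a median over its 7 genes of 85.1 FPKM with TTC22V1, 109.8 FPKM in vector, 55.0 FPKM with siTTC22 and 53.5 FPKM in scramble. The median of the 7 measured alpha genes was 19.2, 18.9, 15.5 and 10.6 FPKM in the same libraries. Although the subunits of the core assemble in equal numbers, the highest of these 14 transcripts exceeded the lowest by 13.9-fold with TTC22V1, 12.3-fold in vector, 7.22-fold with siTTC22 and 9.28-fold in scramble.

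Too little signal to be measured in either treatment comparison was found for 4 of the 48 genes. PSMA8, the alpha subunit of the testis proteasome, was listed at 0 in all 4 libraries, and PSMB11, the beta subunit of the thymus proteasome, was at 0 apart from 0.0104 FPKM in scramble. PSMB8 was at 0.257 FPKM with TTC22V1, 0.362 FPKM in vector, 0.453 FPKM with siTTC22 and 0.0579 FPKM in scramble. PSMG4, an assembly chaperone, was at 0.488 FPKM with TTC22V1, 1.29 FPKM in vector, 0.548 FPKM with siTTC22 and 0.675 FPKM in scramble. The other 44 genes were measured in every comparison.

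**Figure D1:**
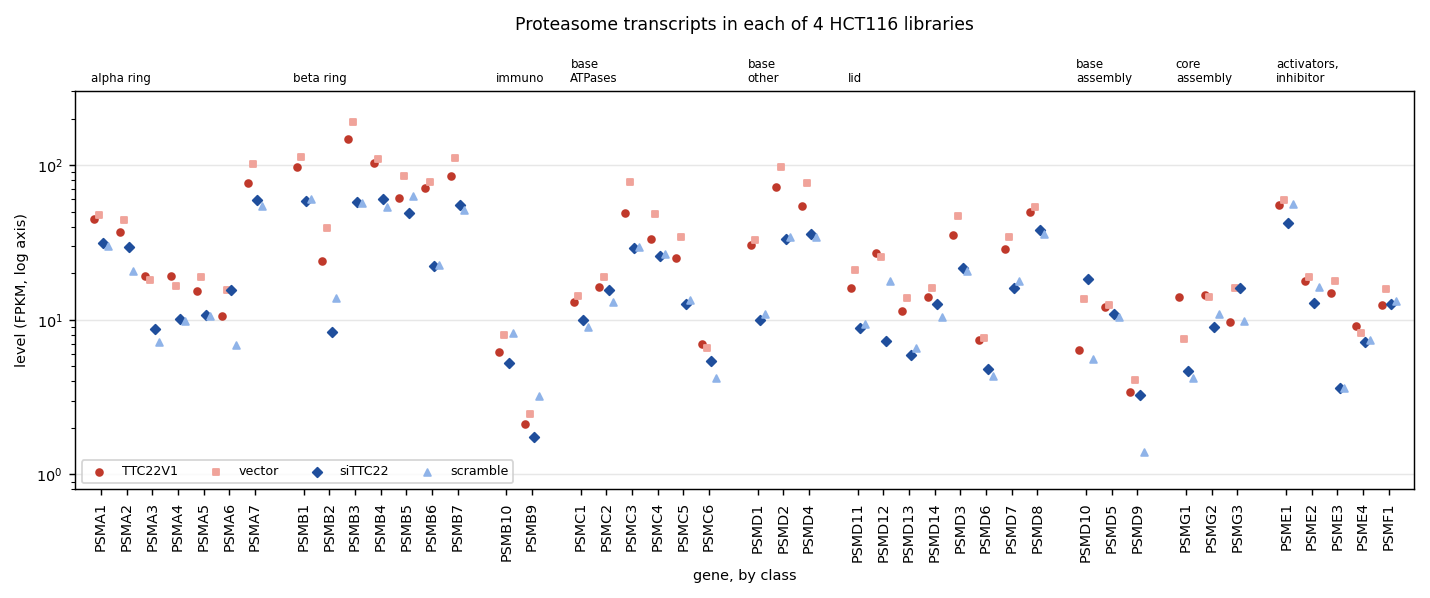
Levels of the 44 measured proteasome genes in the 4 libraries, in FPKM on a log axis, with genes grouped by class along the horizontal axis and 1 point per library. The points of the siTTC22 and scramble libraries lie below those of the TTC22V1 and vector libraries for 36 of the 44 genes, and the immunoproteasome genes PSMB9 and PSMB10 are among the exceptions.

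With TTC22V1 overexpression no measured proteasome gene passed 2-fold on FPKM + 1 against vector. The count was 0 of 44, against a background of 6.18% of 10191 measured genes. The 44 genes had a median log2 fold of −0.23, next to −0.21 for all measured genes, and 19 of the 44 lay above the median of all genes. The median of the list thus differed from that of all genes by −0.02. At a looser limit of 1.5-fold 5 of 44 genes passed, 1 higher and 4 lower, against 14.2% of all measured genes.

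Within the core particle, the 7 alpha genes had a median log2 fold of −0.23 and the 7 beta genes −0.36, or −0.03 and −0.15 relative to the median of all genes. All 7 beta genes were below 0 as deposited, but 5 of 7 were after centring on the median of all genes and 4 of 7 after rescaling to the library sum without TTC22. PSMB5, the chymotrypsin-like catalytic subunit, was at 60.9 FPKM with TTC22V1 and 85.6 FPKM in vector, and PSMB2, a structural beta subunit, was at 24.01 FPKM with TTC22V1 and 38.9 FPKM in vector. PSMB2 had the lowest log2 fold of the core, −0.68. At the other end PSMA4, an alpha subunit, was at 19.2 FPKM with TTC22V1 and 16.5 FPKM in vector.

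Among regulatory particle genes with a PSM name the 6 base ATPases had a median of −0.34, the 3 other base subunits −0.42 and the 8 lid subunits −0.22. PSMC3, an ATPase, was lowest of these, at 49.3 FPKM with TTC22V1 and 77.7 FPKM in vector, a log2 fold of −0.65, which is −0.44 after centring on all genes. PSMD2, a scaffold protein of the base like PSMD1, was at 72.2 FPKM with TTC22V1 and 97.3 FPKM in vector. PSMD14, the lid enzyme that cuts ubiquitin chains off substrates, was at 13.98 FPKM with TTC22V1 and 16.1 FPKM in vector. None of these 17 genes passed 2-fold.

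The assembly chaperones, which guide ring and base formation and are not part of the finished particle, held the lowest and the highest log2 fold of the list. PSMD10, also called gankyrin, a chaperone of the base that also binds RB1 and MDM2 (ENSG00000101843, chromosome X, 108084207 to 108091549 on hg38), was at 6.34 FPKM with TTC22V1 and 13.5 FPKM in vector, a log2 fold of −0.99, just within the rule. Its ratio of FPKM without the added 1 was 0.468, which is past 2-fold. PSMG1, which pairs with PSMG2 to seed the alpha ring (ENSG00000183527, chromosome 21, 39174769 to 39183488), was at 13.99 FPKM with TTC22V1 and 7.47 FPKM in vector, a log2 fold of 0.82. Relative to the median of all genes PSMG1 was at 1.03 and so past 2-fold, as 1 of 44 genes against 2.64% of all genes higher after this centring, and PSMD10 was at −0.78. PSMG2, the partner of PSMG1, was at 14.3 FPKM with TTC22V1 and 13.98 FPKM in vector. The pair thus did not move alike in these libraries. PSMG3 was at 9.64 FPKM with TTC22V1 and 16.04 FPKM in vector, and PSMD5 at 12.04 FPKM with TTC22V1 and 12.4 FPKM in vector.

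With TTC22 knockdown 3 of 44 proteasome genes passed 2-fold, or 6.82%, against a background of 4.75% of 9744 measured genes. The share is near the background. The 2 higher genes were PSMD10 and PSMA6 and the lower one was PSMD12. PSMD9 had a ratio of FPKM without the added 1 of 2.36 but a log2 fold of 0.84, so it did not pass. The median log2 fold of the 44 genes was 0.03, next to −0.02 for all measured genes, and 23 genes were above 0 and 21 below. After rescaling to the library sum without TTC22 the median was −0.15, with 9 genes above 0 and 35 below, so the list had no direction that held under each scaling. These sums were 205727 with siTTC22 and 181091 in scramble, so rescaling lowers measured genes in general here. The median of all genes under it was not computed. At 1.5-fold 7 of 44 passed, 4 higher and 3 lower, against 11.3% of all measured genes.

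PSMD10 had the largest difference. It was at 18.2 FPKM with siTTC22 and 5.61 FPKM in scramble, a log2 fold of 1.54. PSMA6, an alpha subunit (ENSG00000100902, chromosome 14, 35278633 to 35317493), was at 15.5 FPKM with siTTC22 and 6.84 FPKM in scramble, a log2 fold of 1.07, which became 0.90 and so fell short of 2-fold after rescaling. PSMD12, a scaffold subunit of the lid (ENSG00000197170, chromosome 17, 67337916 to 67366605), was at 7.30 FPKM with siTTC22 and 17.8 FPKM in scramble, a log2 fold of −1.18. These genes have 6, 7 and 13 exons in the transcript with most exons. The annotation holds 3 pseudogenes named for PSMD10, 4 for PSMA6 and 1 for PSMD12, with which reads could be shared, so the single values are uncertain for that reason.

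The neighbours of PSMA6 and PSMD12 in the particle stayed within 2-fold. The other 6 measured alpha genes had log2 folds between 0.02 (PSMA5) and 0.48 (PSMA2), and all 7 alpha genes were above 0 as deposited and after centring, but 3 of 7 were after rescaling. PSMA2 was at 29.4 FPKM with siTTC22 and 20.8 FPKM in scramble. The other 7 lid genes had log2 folds between −0.15 (PSMD7) and 0.26 (PSMD14). PSMD7, the inactive partner of PSMD14, was at 15.9 FPKM with siTTC22 and 17.8 FPKM in scramble.

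The base genes lay close together. All 9, the 6 ATPases and PSMD1, PSMD2 and PSMD4, had log2 folds between −0.11 (PSMD1) and 0.29 (PSMC6). The ubiquitin receptor PSMD4 was at 35.8 FPKM with siTTC22 and 34.03 FPKM in scramble. In the beta ring PSMB2 was again lowest, at 8.39 FPKM with siTTC22 and 13.9 FPKM in scramble (log2 fold −0.67), and PSMB5 was next, at 49.04 FPKM with siTTC22 and 63.5 FPKM in scramble. The other 5 beta genes lay within −0.05 (PSMB1) and 0.18 (PSMB4).

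**Figure D2:**
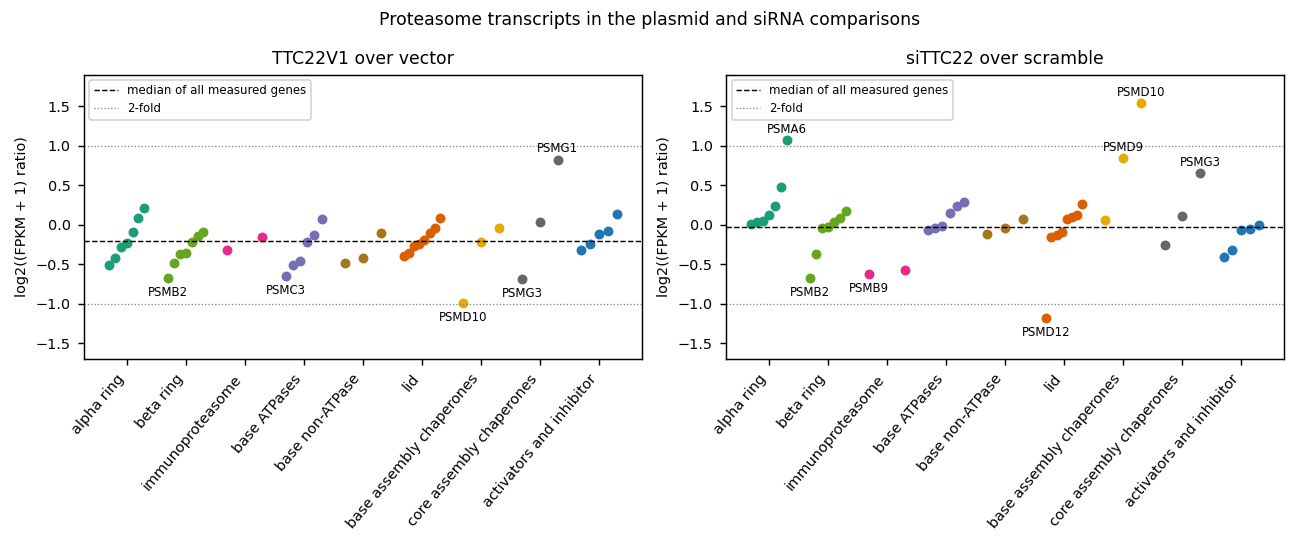
Log2 folds of the 44 measured proteasome genes by class, for TTC22V1 over vector on the left and siTTC22 over scramble on the right, with 1 point per gene, the median of all measured genes as a dashed line and 2-fold as dotted lines. No point passes a dotted line on the left, and on the right PSMD10, PSMA6 and PSMD12 do.

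The genes that differed within an experiment were compared over all 4 libraries, since each comparison rests on 1 control. PSMD10 was at 6.34 FPKM with TTC22V1, 13.5 FPKM in vector, 18.2 FPKM with siTTC22 and 5.61 FPKM in scramble, so siTTC22 and vector were the high libraries. PSMG3, which pairs with PSMG4, was high in the same libraries, with 9.64 FPKM with TTC22V1, 16.04 FPKM in vector, 16.1 FPKM with siTTC22 and 9.83 FPKM in scramble. As deposited, these were the 2 of 44 genes at least 1.5-fold lower with TTC22V1 and at least 1.5-fold higher with siTTC22. That is 4.55%, against 1.05% of 9226 genes measured in both comparisons. After centring on the median of all genes PSMG3 was at −0.47 for TTC22V1 over vector, short of 1.5-fold. PSMD10, at −0.78, was then the only gene of the list 1.5-fold lower with TTC22V1. The opposite combination was met by 0 of 44 proteasome genes, against 0.629% of all. PSMG3 has at most 3 exons, and its annotation holds 2 pseudogenes.

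The control libraries stood apart from each other for these genes too, with log2 folds of scramble over vector of −1.14 for PSMD10 and −0.65 for PSMG3. The same holds for PSMA6 (−1.08), PSMD9 (−1.10), PSMG1 (−0.70) and PSMD12 (−0.48). This gap was not particular to these genes, since 42 of the 44 measured proteasome genes were below 0 in this contrast. Their median was −0.86, next to −0.25 for all measured genes. PSMA6 was at 10.6 FPKM with TTC22V1 and 15.5 FPKM in vector, so scramble was the lowest of the 4 libraries and the siTTC22 level was close to that of vector. PSMD9, a base chaperone, was likewise lowest in scramble, with 3.39 FPKM with TTC22V1, 4.10 FPKM in vector, 3.27 FPKM with siTTC22 and 1.39 FPKM in scramble. PSMD12 was the reverse case: with 26.95 FPKM with TTC22V1 and 25.3 FPKM in vector, siTTC22 was the lowest of the 4 libraries. PSMG1 was highest with TTC22V1, and at 4.66 FPKM with siTTC22 and 4.22 FPKM in scramble. A high or low control library cannot be told apart from an effect of the treatment for any of these 6 genes.

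**Figure D3:**
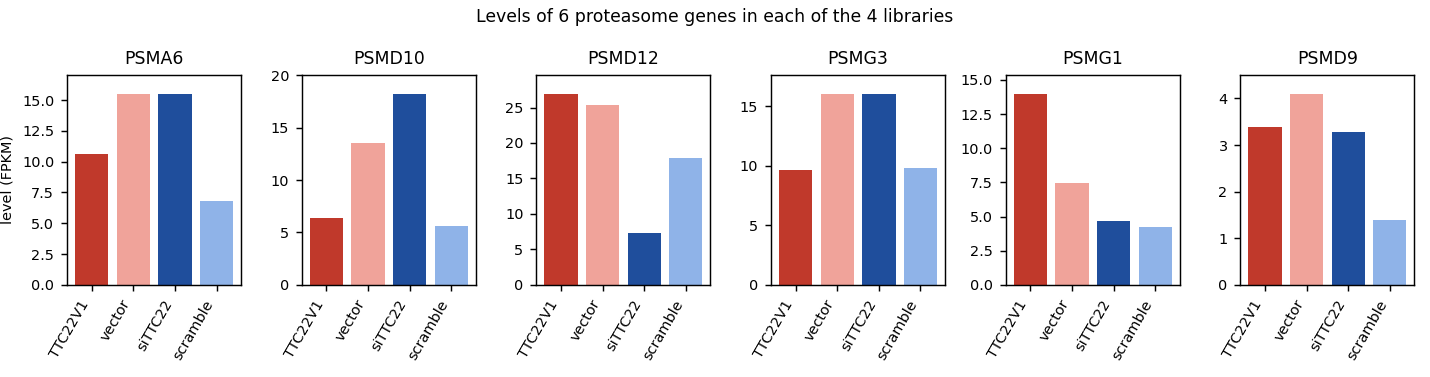
Bars give the level in FPKM of PSMA6, PSMD10, PSMD12, PSMG3, PSMG1 and PSMD9 in the TTC22V1, vector, siTTC22 and scramble libraries, 1 library per bar. PSMD10 and PSMG3 are high in vector and siTTC22, PSMD12 is lowest with siTTC22, and PSMG1 is highest with TTC22V1.

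The immunoproteasome subunits were scarce in HCT116 cells. PSMB9, which replaces PSMB6 in the immunoproteasome, was at 2.11 FPKM with TTC22V1, 2.47 FPKM in vector, 1.74 FPKM with siTTC22 and 3.21 FPKM in scramble. PSMB10, which replaces PSMB7, was at 6.19 FPKM with TTC22V1, 7.93 FPKM in vector, 5.23 FPKM with siTTC22 and 8.26 FPKM in scramble. PSMB8, which replaces PSMB5, stayed under 1 FPKM as given above. On the per-length scale the PSMB9 level was 2.97% of the PSMB6 level with TTC22V1, 3.15% in vector, 7.81% with siTTC22 and 14.2% in scramble. The PSMB10 level was 7.28% of the PSMB7 level with TTC22V1, 7.19% in vector, 9.50% with siTTC22 and 16.0% in scramble. PSMB6 was at 71.1 FPKM with TTC22V1, 78.3 FPKM in vector, 22.2 FPKM with siTTC22 and 22.6 FPKM in scramble. PSMB7 was at 85.1, 110.3, 55.0 and 51.6 FPKM in the same libraries. The higher ratios in scramble than in vector thus came mainly with lower PSMB6 and PSMB7 levels. Both ratios hardly differed in the plasmid experiment and were lower with siTTC22 than in scramble. The PSMB8 level went the other way in the siRNA experiment, at 0.924% of the PSMB5 level with siTTC22 and 0.0911% in scramble, and at 0.422% with TTC22V1 and 0.423% in vector, with PSMB8 below 1 FPKM throughout.

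**Figure D4:**
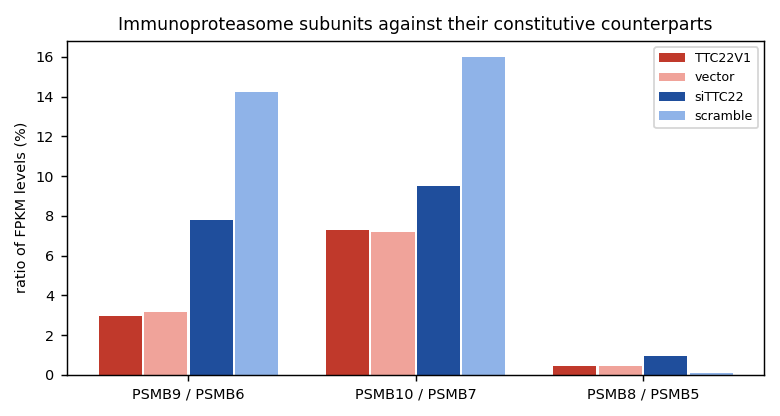
Bars give the FPKM level of each immunoproteasome subunit as a percentage of that of the constitutive subunit it replaces, in the TTC22V1, vector, siTTC22 and scramble libraries. The scramble library has the highest ratio for PSMB9 to PSMB6 (14.2%) and PSMB10 to PSMB7 (16.0%), and the ratio for PSMB8 to PSMB5 is below 1% in all 4 libraries. The levels of PSMB6 and PSMB7 themselves are lower in both siRNA libraries than in both plasmid libraries.

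In the knockdown the measured interferon-inducible members were all lower, also after centring and after rescaling, though none of the 4 passed 2-fold. Of all measured genes 5278 of 9744 were below 0 as deposited, and after rescaling 35 of the 44 proteasome genes were. The share of all genes below 0 after rescaling was not computed. PSMB9 had a log2 fold of −0.62 and PSMB10 of −0.57. PSME1 and PSME2, which encode the alpha and beta subunits of the PA28 activator, were at 42.4 and 12.8 FPKM with siTTC22 and 56.3 and 16.2 FPKM in scramble, log2 folds of −0.40 and −0.32. PSME3, which encodes the nuclear PA28 gamma and is not interferon-inducible, was at 3.62 FPKM with siTTC22 and 3.65 FPKM in scramble. The 8 listed partners of the immunoproteasome in MHC class I processing and its induction gave 7 measured genes, of which 0 passed 2-fold, with a median log2 fold of −0.45. The scramble library stood high for these partners: relative to all genes their median was 0.47 for scramble over vector and 0.0036 for siTTC22 over TTC22V1. All 4 interferon-inducible members were likewise above the median of all genes for scramble over vector and below it for siTTC22 over TTC22V1. Among the partners TAP1, a peptide transporter subunit, was at 16.1 FPKM with siTTC22 and 22.3 FPKM in scramble. With TTC22V1 the same 7 partners had a median of −0.06. TAP1 overlaps PSMB9 on the opposite strand, and the strand setting of the quantification is not given in the sources used here, so their reads may not be fully separated. PSME2 likewise overlaps RNF31, at 2.36 FPKM with siTTC22 and 4.42 FPKM in scramble. PSME1 overlaps EMC9, at 3.67 FPKM with siTTC22 and 3.22 FPKM in scramble. The annotation also holds 6 pseudogenes named for PSME2, with which reads could be shared.

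A larger difference in proteasome transcripts lay between the experiments. Their tables were deposited separately, and the libraries differ in the kind of nucleic acid transfected and in any batch, which cannot be told apart. In scramble 18 of 44 genes were at least 2-fold lower than in vector, or 40.9%, against a background of 14.1% of 10214 measured genes, and 0 were 2-fold higher, against 4.99%. At 1.5-fold 31 of 44 were lower, against 30.2%. The median log2 fold was −0.86, next to −0.25 for all measured genes. After centring on that median 8 of 44 were at least 2-fold lower, or 18.2%, against 8.82% of all genes. With siTTC22 9 of 44 genes were at least 2-fold lower than with TTC22V1, or 20.5%, against 9.74% of 9941 measured genes, and PSMD10 alone was higher, against 7.79%. At 1.5-fold 20 of 44 were lower, against 22.1%, and after centring 8 of 44 were 2-fold lower, against 8.19%. The median was −0.52, next to −0.08 for all genes. Rescaling to the library sum without TTC22 moved the count to 17 lower and the median to −0.82. These sums were 164423 with TTC22V1 and 205727 with siTTC22, so rescaling lowers measured genes in general in this contrast. The share of all genes past 2-fold under it was not computed, so the larger count is no result about the proteasome genes. CD68, the leukocyte marker above 1 FPKM, moved with the same contrast, at 37.2 FPKM with siTTC22 and 42.6 FPKM in scramble, against 5.76 FPKM with TTC22V1 and 6.34 FPKM in vector, and its part in the result was not tested.

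Core, base and lid subunits shared this difference. Of the 31 measured subunits of these parts with a PSM name, 29 were lower in both siRNA libraries than in both plasmid libraries, with PSMA6 and PSMB5 as the exceptions. After rescaling 30 of the 31 were, against 48.5% of 10201 genes. Over all 44 genes 36 were, or 81.8%, against 42.5% of 10133 genes whose 4 libraries averaged 1 FPKM or more. Genes without a PSM name were counted apart. Among them ADRM1 was lower in both siRNA libraries, and SHFM1, at 3.89 FPKM with siTTC22 and 3.73 FPKM with TTC22V1, was not. The summed core transcripts of the alpha and beta rings were at 478 FPKM with siTTC22 and 463 FPKM in scramble, against 812 FPKM with TTC22V1 and 989 FPKM in vector. The 17 base and lid transcripts summed to 293 FPKM with siTTC22 and 297 FPKM in scramble, against 490 FPKM with TTC22V1 and 624 FPKM in vector.

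The size of the gap varied from gene to gene. PSME3 had the widest, at 3.62 FPKM with siTTC22 and 3.65 FPKM in scramble, against 14.95 FPKM with TTC22V1 and 17.9 FPKM in vector, a log2 fold of −1.79 for siTTC22 over TTC22V1 and −2.03 for scramble over vector. BECN1 overlaps PSME3 on the opposite strand, so the reads of PSME3 may not be fully separated from it. PSMB6, the caspase-like catalytic subunit, was at 22.2 FPKM with siTTC22 and 22.6 FPKM in scramble, against 71.1 FPKM with TTC22V1 and 78.3 FPKM in vector. PSMB3, a structural beta subunit, was at 58.1 FPKM with siTTC22 and 56.6 FPKM in scramble, against 148 FPKM with TTC22V1 and 190.2 FPKM in vector. Together with PSMA3, PSMB2, PSMD1 and PSMD2 these made 7 of 44 genes at least 2-fold lower in both contrasts, or 15.9%, against 6.7% of 9718 genes.

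Other subunits differed little. PSMB5 was at 49.04 FPKM with siTTC22 and 63.5 FPKM in scramble, against 60.9 FPKM with TTC22V1 and 85.6 FPKM in vector. PSME1 was at 42.4 and 56.3 FPKM in the siRNA libraries, against 54.9 and 59.6 FPKM in the plasmid libraries. PSMB9 and PSMB10 were the 2 genes of the 44 with a log2 fold above 0 for scramble over vector, 0.28 and 0.05. PSME4, which encodes the activator PA200, was at 7.16 FPKM with siTTC22 and 7.43 FPKM in scramble, against 9.16 FPKM with TTC22V1 and 8.26 FPKM in vector. PSMF1, which encodes the inhibitor PI31, was at 12.6 FPKM with siTTC22 and 13.2 FPKM in scramble, against 12.5 FPKM with TTC22V1 and 15.8 FPKM in vector. Across the 44 genes the 2 contrasts, which share no library, had a Spearman rho of 0.56, and across 10133 genes of all kinds it was 0.69. The genes of a contrast share their libraries and their normalization, so this is a description only.

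**Figure D5:**
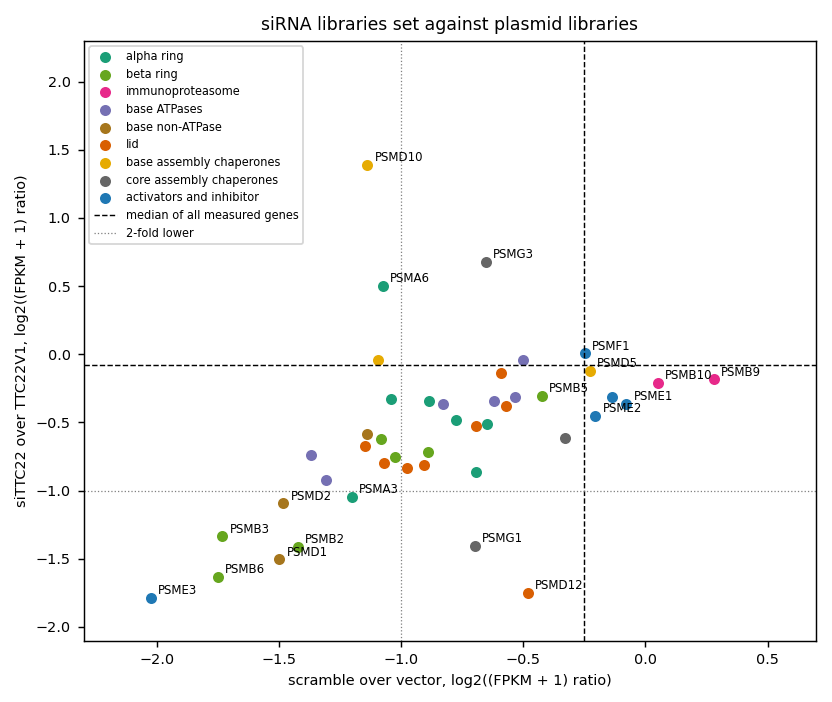
Each point is 1 of the 44 measured proteasome genes, with the log2 fold of scramble over vector on the horizontal axis and of siTTC22 over TTC22V1 on the vertical axis, coloured by class, and with the medians of all measured genes as dashed lines. Most genes lie in the lower left quadrant, with PSME3, PSMB6 and PSMB3 at the far left, while PSMB9, PSMB10, PSME1 and PSME2 lie near the medians on the right and PSMD10 lies at the top.

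The promoters of genes at both ends of this range are shown, PSMB3 and PSME3 from the low end and PSMB9 and PSMB10 from the other. Each sequence is the 250 bases before the RefSeq start on GRCh38.p14, on the strand of the gene. For PSME3, PSMB9 and PSMB10 this start lies inside the longer GENCODE gene. Capitals mark the core of the antioxidant response element, TGACNNNGC, which NFE2L1 and NFE2L2 bind, the CCAAT box bound by NF-Y, and the core of the interferon response element, which is GAAA, any 2 bases and GAAA. Each was sought on both strands.
PSMB3 (chr17:38752491-38752740, plus strand): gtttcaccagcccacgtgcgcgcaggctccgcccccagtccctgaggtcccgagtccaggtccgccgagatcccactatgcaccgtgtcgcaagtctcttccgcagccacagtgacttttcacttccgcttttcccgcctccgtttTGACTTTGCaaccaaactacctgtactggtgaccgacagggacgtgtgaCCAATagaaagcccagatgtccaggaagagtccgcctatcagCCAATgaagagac
PSME3 (chr17:42833147-42833396, plus strand): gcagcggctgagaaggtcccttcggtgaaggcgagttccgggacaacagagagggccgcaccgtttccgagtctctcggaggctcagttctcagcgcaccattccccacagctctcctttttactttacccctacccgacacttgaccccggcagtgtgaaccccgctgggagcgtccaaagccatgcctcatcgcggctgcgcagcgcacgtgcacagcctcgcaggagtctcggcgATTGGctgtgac
PSMB9 (chr6:32853942-32854191, plus strand): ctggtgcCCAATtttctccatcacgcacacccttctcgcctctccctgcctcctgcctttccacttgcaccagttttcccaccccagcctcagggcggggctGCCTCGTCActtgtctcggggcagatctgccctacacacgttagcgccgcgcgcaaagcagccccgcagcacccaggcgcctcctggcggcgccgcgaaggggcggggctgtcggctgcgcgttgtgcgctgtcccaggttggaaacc
PSMB10 (chr16:67936851-67937100, minus strand): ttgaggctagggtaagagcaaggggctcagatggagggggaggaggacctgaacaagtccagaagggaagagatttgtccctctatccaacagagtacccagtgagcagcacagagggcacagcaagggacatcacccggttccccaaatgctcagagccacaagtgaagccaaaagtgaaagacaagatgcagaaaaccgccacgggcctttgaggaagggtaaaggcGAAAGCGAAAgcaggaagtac

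The PSMB3 window held 1 antioxidant response core and 2 CCAAT boxes, and the PSME3 window 1 CCAAT box on the opposite strand. The PSMB9 window held 1 CCAAT box and, on the opposite strand, 1 antioxidant response core. The PSMB10 window held 1 interferon response core, close to the start. No marked motifs overlapped. Promoters of 42 of the 48 genes were matched. The antioxidant response core was found in 13 of these 42, or 31.0%, against 13.2% of 27305 genes, the CCAAT box in 19, or 45.2% against 37.0%, and the interferon response core in 5, or 11.9% against 3.71%. These 5 were PSMA4, PSMB10, PSMB4, PSME2 and PSMG4. A match is a run of letters and no measured binding site.

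Genes that work beside the proteasome were counted from lists of their own, to be read against the 6.18% and 4.75% of all measured genes given above. Of 11 measured proteasome factors without a PSM name, 1 was higher and 0 lower with TTC22V1, and 0 passed with siTTC22. Their median log2 fold was −0.05 with TTC22V1 and 0.14 with siTTC22. The higher one was PITHD1, which shares the PITH domain of the proteasome-bound TXNL1, at 16.1 FPKM with TTC22V1 and 6.31 FPKM in vector. The maturation factor POMP was at 78.3 FPKM with TTC22V1, 76.8 FPKM in vector, 47.1 FPKM with siTTC22 and 37.6 FPKM in scramble. The ubiquitin receptor gene ADRM1 was at 67.4 FPKM with TTC22V1, 104 FPKM in vector, 42.3 FPKM with siTTC22 and 41.9 FPKM in scramble. Both were lower in the siRNA libraries, but the list as a whole was not: relative to all genes its median was 0.0043 for scramble over vector and 0.039 for siTTC22 over TTC22V1, and KIAA0368, TXNL1 and UBE3C were above 0 in both. USP14, a deubiquitinase of the base, was at 10.2 FPKM with TTC22V1 and 5.50 FPKM in vector, and at 7.88 FPKM with siTTC22 and 4.08 FPKM in scramble, within 2-fold in both.

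Among 7 regulators of proteasome gene transcription 1 was lower with TTC22V1 and 0 passed with siTTC22, with median log2 folds of −0.18 and 0.13. NFE2L1 was at 17.1 FPKM with TTC22V1, 19.5 FPKM in vector, 17.3 FPKM with siTTC22 and 27.04 FPKM in scramble. These are transcript levels only, and the part of NFE2L1 in the difference between the experiments was not tested. The lower one was NFE2L2, the antioxidant response factor, at 3.86 FPKM with TTC22V1 and 10.3 FPKM in vector. It was at 7.30 FPKM with siTTC22 and 4.003 FPKM in scramble, so vector was the highest of the 4 libraries. NGLY1, the glycanase that helps activate NFE2L1, was at 9.90 FPKM with siTTC22 and 8.71 FPKM in scramble, against 3.92 FPKM with TTC22V1 and 3.49 FPKM in vector. The subunits of NF-Y differed in direction between the experiments. NFYB was at 2.301 FPKM with siTTC22 and 2.02 FPKM in scramble, against 5.01 FPKM with TTC22V1 and 4.73 FPKM in vector. NFYC was at 4.41 FPKM with siTTC22 and 4.24 FPKM in scramble, against 5.98 FPKM with TTC22V1 and 7.84 FPKM in vector. NFYA was higher in the siRNA libraries, at 6.2996 FPKM with siTTC22 and 5.50 FPKM in scramble, against 2.64 FPKM with TTC22V1 and 3.04 FPKM in vector.

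Of the genes of ubiquitin supply and delivery, UBB, which encodes polyubiquitin, was at 239 FPKM with TTC22V1, 371 FPKM in vector, 121 FPKM with siTTC22 and 165 FPKM in scramble, within 2-fold in both treatment comparisons. VCP, the segregase that delivers substrates, was at 39.99 FPKM with TTC22V1, 51.4 FPKM in vector, 27.7 FPKM with siTTC22 and 28.9 FPKM in scramble. Other genes of this list went the other way between the experiments. ZFAND5 was at 8.69 FPKM with siTTC22 and 9.24 FPKM in scramble, against 4.76 FPKM with TTC22V1 and 5.81 FPKM in vector. RPS27A and ZFAND2A were also higher in both siRNA libraries than in both plasmid libraries.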

How the data were processed

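Libraries were made from poly-A RNA and read from both ends, per the labels' protocols. The submitters' processing notes name STAR and hg38. The quantifying program, its annotation, strand setting and filters were not given in the sources used here. Deposited values, 1 table per experiment, were taken to be FPKM made by the authors: they are not whole, and their sums differ between libraries and lie between 181102 and 205734. Depth is unknown, so no counting interval was given, and with 1 library per group there was no test.

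Log2 folds used a pseudocount of 1 FPKM, which understates the change of low genes, and were computed over the whole table. Exon numbers, coordinates and pseudogene names are from GENCODE 44, and promoters from RefSeq. Python 3.11.15, pandas 2.3.3 and numpy 2.4.6 were used. The size rule was run on simulated pairs with an assumed noise and added changes larger than the limit. That run does not show how often the rule errs in these libraries. Alternatives were another pseudocount, filter, scaling, size limit, exon minimum and summary. Some results of the other lists are not reported here. All 48 genes could be named, and genes of other lists were named when past the rule or when a result turned on them. Members and lists were chosen with earlier results of these data known. The comparisons across experiments, the motifs, the genes whose promoters are shown and the genes of the plot of 6 genes were chosen after the data had been seen.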

Additional observations from a re-analysis of the deposited data

How the results depend on the processing

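No paired analysis was possible because each group has 1 library, and for the same reason no library could be left out. In the plasmid comparison the count of 0 past 2-fold became 1 with a pseudocount of 0.1 (PSMD10, lower), 1 after centring and 1 after rescaling to the library sum without TTC22 (PSMG1, higher), and 5 at 1.5-fold. It was 0 with no filter, at a minimum mean of 5 FPKM and over genes with 4 or more exons. The median of −0.23 was −0.24 with a pseudocount of 0.1, −0.019 after centring, −0.22 with no filter, −0.24 at a minimum mean of 5 FPKM, −0.014 after rescaling and −0.22 over genes with 4 or more exons. In the siRNA comparison the count of 3 became 7 at 1.5-fold and lay between 2 and 4 in the other settings; PSMA6, at 1.07, dropped out after rescaling, at 0.90. The median of 0.03 turned to −0.15 after rescaling, and was 0.050 after centring, 0.0076 with no filter, 0.0011 at a minimum mean of 5 FPKM, 0.015 over genes with 4 or more exons and 0.037 as a mean, so it has no stable direction. Centring and rescaling move measured genes in general, and no median of all genes was computed under rescaling. The cause of the other shifts was not tested.

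For scramble over vector the count of 18 became 8 after centring and 31 at 1.5-fold, and lay between 13 and 19 otherwise. The median of −0.86 was −0.87 with a pseudocount of 0.1, −0.61 after centring, −0.74 with no filter, −0.77 after rescaling, −0.89 over genes with 4 or more exons and −0.84 as a mean. For siTTC22 over TTC22V1 the count of 10, 9 lower and PSMD10 higher, became 18 after rescaling and 22 at 1.5-fold, and was 9 or 10 otherwise. The share of all genes past 2-fold under rescaling was not computed. The median of −0.52 was −0.56 with a pseudocount of 0.1, −0.44 after centring, −0.47 with no filter, −0.56 at a minimum mean of 5 FPKM, −0.82 after rescaling, −0.53 over genes with 4 or more exons and −0.57 as a mean. Both medians thus kept their direction in all of these settings. These alternatives across the experiments were chosen after seeing the data.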

Other observations

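Names that share the pattern but encode no proteasome subunit or regulator were low. PSMC3IP, the recombination factor, was at 2.31 FPKM with TTC22V1, 3.17 FPKM in vector, 0.831 FPKM with siTTC22 and 0.927 FPKM in scramble. PSMA3-AS1, which overlaps PSMA3 on the opposite strand, was at 0.395 FPKM with TTC22V1, 1.38 FPKM in vector, 0.759 FPKM with siTTC22 and 0.960 FPKM in scramble, while PSMA3 itself was at 19.1 FPKM with TTC22V1, 17.95 FPKM in vector, 8.75 FPKM with siTTC22 and 7.23 FPKM in scramble. The antisense RNAs PSMB8-AS1, PSMD5-AS1, PSMD6-AS2 and PSMG3-AS1 stayed under 0.5 FPKM in all 4 libraries.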
